A study of Mus musculus with 6 samples.

Results

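Expression of 10 enzymes and carriers of mitochondrial fatty acid oxidation was followed in mouse T cells treated with CKBA: the carnitine shuttle genes Cpt1a, Slc25a20 and Cpt2, the beta-oxidation genes Acadvl, Acadm, Echs1, Hadha, Eci2 and Decr1, and the electron transfer gene Etfa. They were chosen by symbol, and all 10 of the 10 were found among the 47725 genes of the deposited count table. Wild-type C57BL/6 CD4+ cells, naive at the start, were grown for 3 days with antibodies to CD28 (2 µg/ml), IFN-γ (10 µg/ml) and IL-4 (5 µg/ml), with recombinant human TGF-β1 and recombinant mouse IL-6 and IL-23 (10 ng/ml each), in medium with 10% heat-inactivated serum. These cytokines and antibodies are known to favour the TH17 fate of helper T cells. All 6 RNA-seq libraries shared these conditions, and 3 came from cultures with CKBA, a derivative of the frankincense triterpenoid AKBA, and 3 from cultures with the solvent DMSO. The age of the mice, the dose of CKBA and whether replicates were separate cultures are not given in the sources used here, and the spread behind each p-value is that between libraries, which may be technical only.

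Mitochondria burn long-chain fatty acids only after CPT1A has joined them to carnitine on the outer membrane, the rate-limiting step, which is inhibited by malonyl-CoA, the product of acetyl-CoA carboxylase. The translocase encoded by Slc25a20 carries the acylcarnitine inward, CPT2 returns the acyl group to coenzyme A, and repeated rounds of dehydrogenation, hydration, dehydrogenation and thiolysis then shorten the chain. Electrons of the first dehydrogenation pass through the electron transfer flavoprotein to ubiquinone. Effector T cells are known for relying on glycolysis and fatty acid synthesis, and regulatory and memory T cells more on fatty acid oxidation.

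With CKBA, 3 of the 10 genes rose (Echs1, Decr1 and Etfa), 1 fell (Eci2) and 6 did not pass the test, Cpt1a among them. With the replicate number as a block, Acadm was called as lower too, 5 of the 10 in all, in a fit that called 28.2% of all genes. A gene was called at an adjusted p under 0.05 in edgeR's quasi-likelihood test over 13928 genes, where 17.1% of all genes were called, 7.86% as higher and 9.23% as lower. The fitted differences of the 10 genes lay between -0.42 and 0.40 on the log2 scale, with a median of -0.03 against 0.01 over all genes tested, 5 of them above zero and 5 below. In 7 of the 10 the 3 libraries of one group lay wholly on one side of the other 3, as did 36.6% of all genes. Libraries are named by group and replicate, DMSO-1 to CKBA-3. Replicates 1 and 2 lay close together in each group and replicate 3 apart from both, and calls were lost when 1 of the close ones was left out: 0 of the 10 genes were called without DMSO-1 (4.8% of all genes called), DMSO-2 (4.48%), CKBA-1 (5.59%) or CKBA-2 (5.52%), 4 without DMSO-3 (21.9%) and 5 without CKBA-3 (27.9%). Summing replicates 1 and 2 of each group into 1 library left 0 called (0.732% of all genes), and without replicate 3 of either group 7 were (52.8%). The signs of the 4 called genes were the same in all of these fits. Within replicate numbers, Acadm, Acadvl, Hadha and Slc25a20 were, like Eci2, lower under CKBA in all 3, but of these only Eci2 was called in the main fit. In replicate 3 the log2 differences of Acadvl, Hadha and Slc25a20 were small (-0.013, -0.0091 and -0.018). The share of all genes with the same sign in all 3 was not counted.

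**Figure D1:**
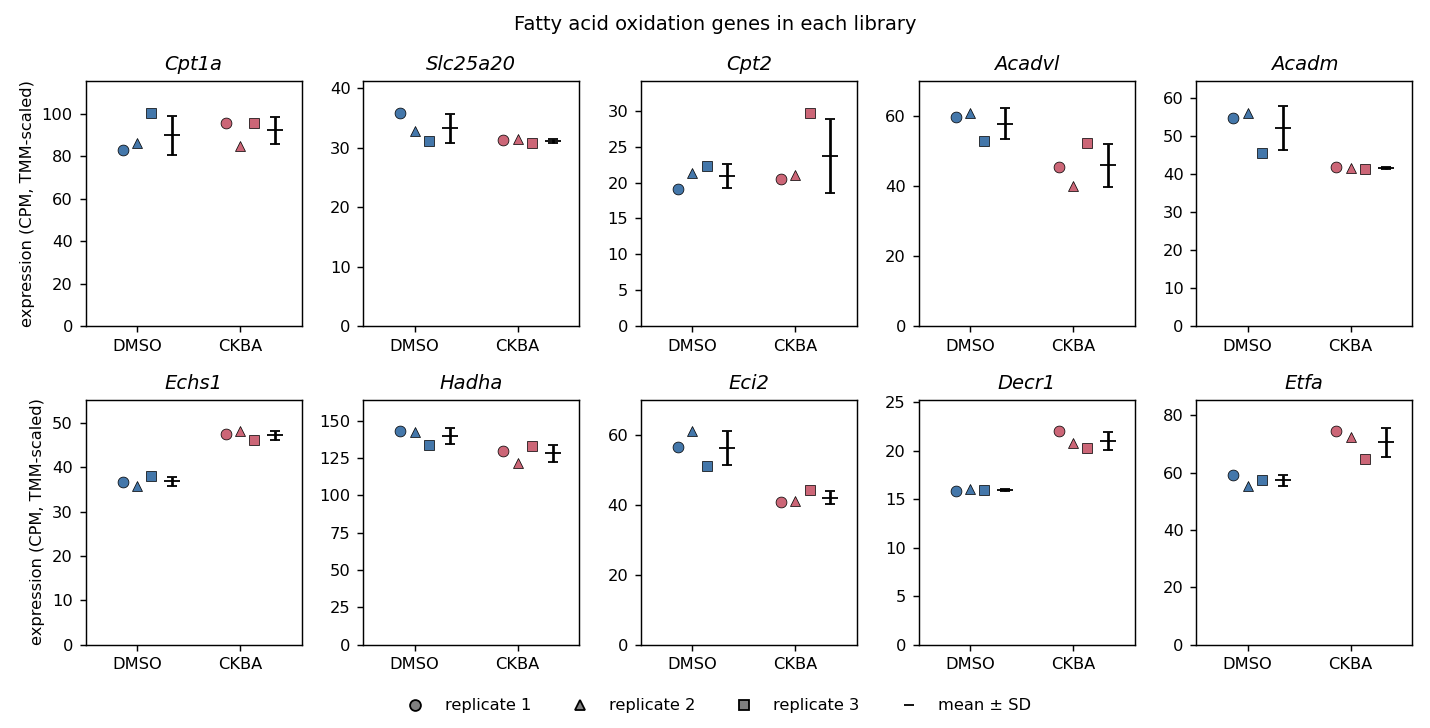
Expression of the 10 fatty acid oxidation genes in CPM (vertical axes, from 0) in each of 3 DMSO (blue) and 3 CKBA (red) libraries, with the marker shape giving the replicate and the bar the mean ± SD. Echs1, Decr1 and Etfa sit higher in every CKBA library than in any DMSO library, Eci2 sits lower in every one, and the Cpt1a values of the groups overlap.

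Annotated start regions of 3 called genes are shown here to give the sequence around a known start of each. The counts are per gene and do not show which start was used. RefSeq promoter windows (GRCm38.p6, 250 bases before to 50 after the gene start, 5′ to 3′ on the gene's strand) were matched for 9 of the 10 genes, and Decr1 had none. Capitals mark matches on either strand to 8 short motifs: the direct repeat of PPAR and RXR, the NRF1 palindrome, TCAAGGTCA (estrogen-related receptors), TGATGNAA (ATF4 with C/EBP), TGACGTCA (CREB), the NF-Y box CCAAT, the GC box and the TATA box. The GC box was searched as GGGCGG. For the TATA box, the letters searched on both strands of each window were TATAAA. The estrogen-related receptor letters share a half-site with the PPAR repeat, so these can overlap.
Echs1 promoter, chr7:140116372-140116671, minus strand: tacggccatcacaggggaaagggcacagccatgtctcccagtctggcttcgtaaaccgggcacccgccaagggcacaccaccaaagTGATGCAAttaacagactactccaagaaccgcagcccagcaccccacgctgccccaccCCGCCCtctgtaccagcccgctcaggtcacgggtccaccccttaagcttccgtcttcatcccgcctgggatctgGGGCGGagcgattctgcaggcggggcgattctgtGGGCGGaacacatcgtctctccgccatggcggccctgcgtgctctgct
Etfa promoter, chr9:55512194-55512493, minus strand: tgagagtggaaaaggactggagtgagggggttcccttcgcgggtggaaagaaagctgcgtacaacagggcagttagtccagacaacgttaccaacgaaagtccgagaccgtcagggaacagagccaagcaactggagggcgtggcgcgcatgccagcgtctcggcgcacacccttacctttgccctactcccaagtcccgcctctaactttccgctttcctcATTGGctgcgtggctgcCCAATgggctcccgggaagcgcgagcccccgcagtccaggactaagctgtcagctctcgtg
Eci2 promoter, chr13:34994095-34994394, minus strand: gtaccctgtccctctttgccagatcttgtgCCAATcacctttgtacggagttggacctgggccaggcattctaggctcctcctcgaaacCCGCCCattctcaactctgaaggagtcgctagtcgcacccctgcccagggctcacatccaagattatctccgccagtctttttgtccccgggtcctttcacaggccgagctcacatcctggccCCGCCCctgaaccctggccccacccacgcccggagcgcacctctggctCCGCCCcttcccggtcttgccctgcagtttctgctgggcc

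The Echs1 window held the ATF4 and C/EBP letters 164 bases upstream of the start, the only 1 of the 9 windows with them, against 3.97% of 32851 mouse promoters. GC boxes were in 6 of the 9 windows (35.66% of all promoters), Echs1 and Eci2 included, and CCAAT was in 3 of them (37.41%), Etfa, Eci2 and Cpt1a. Letters of the PPAR repeat, which 0.0396% of all promoters held, were in 0 of the 9, as were those of estrogen-related receptors (0.423%), NRF1 (0.971%), CREB (1.79%) and the TATA box (13.62%). A match is a description of these letters in this window and does not show binding.

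Of the carnitine shuttle, 0 of the 3 genes were called. Cpt1a (ENSMUSG00000024900, chr19:3322334-3385733, plus strand) was at 83.1, 86.4 and 100.4 CPM in DMSO libraries 1, 2 and 3 and 95.8, 85.1 and 95.8 CPM in CKBA libraries 1, 2 and 3. The groups overlapped, and the highest of all was a DMSO library. Its means of 90.0 ± 9.21 and 92.2 ± 6.20 CPM (SD, n = 3 each) gave a log2 fold change of 0.04 ± 0.10 (SE), with a 95% interval of -0.19 to 0.26, or 0.878-fold to 1.20-fold, and an adjusted p of 0.834. A rise of more than 1.20-fold was outside this interval, which takes the libraries as separate. The estimate was 0.12 ± 0.09 (SE) without DMSO-3 and 0.01 ± 0.13 with replicates 1 and 2 summed, so the bound depends on the libraries used.

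Slc25a20 (ENSMUSG00000032602, chr9:108662088-108684641, plus strand) was at 35.8, 32.8 and 31.1 CPM with DMSO and 31.3, 31.4 and 30.7 CPM under CKBA, an interval of -0.30 to 0.11 on the log2 scale (adjusted p = 0.506). Cpt2 (ENSMUSG00000028607, chr4:107903981-107923610, minus strand) was at 19.1, 21.4 and 22.3 CPM with DMSO and 20.5, 21.1 and 29.7 CPM under CKBA. CKBA-3 alone lay above the DMSO range of Cpt2, and the estimate of 0.19 ± 0.16 (adjusted p = 0.461) was -0.0053 without that library. The other CPT1 genes were scarce: Cpt1b had 2 to 9 counts per library, too few to test, and Cpt1c stood at 0.953 ± 0.368 CPM with DMSO and 0.546 ± 0.0434 CPM under CKBA (adjusted p = 0.203). Per transcript length, Cpt1a made up 96.9% to 98.9% of the summed FPKM of the 3 CPT1 genes in the 6 libraries.

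The first dehydrogenation of each round is done by acyl-CoA dehydrogenases of different chain lengths. Acadvl (very long chains, ENSMUSG00000018574, chr11:70010183-70015411, minus strand) was at 59.8, 61.0 and 52.9 CPM with DMSO and 45.4, 40.2 and 52.5 CPM under CKBA. The groups did not overlap, by a narrow gap between the replicate 3 libraries, and the log2 fold change of -0.33 ± 0.12 had an adjusted p of 0.0857. Without CKBA-3, Acadvl was called at -0.43 (adjusted p = 0.0145). Part of Acadvl overlaps Dvl2 on the opposite strand, and since the counting is not stated to use strand, reads of the overlap cannot be told apart.

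Acadm (medium chains, ENSMUSG00000062908, chr3:153922357-153944632, minus strand) was at 54.9, 56.1 and 45.5 CPM with DMSO and 41.8, 41.5 and 41.3 CPM under CKBA. All CKBA libraries were below all DMSO libraries, with DMSO-3 nearest to them, and the log2 fold change was -0.33 ± 0.10 (adjusted p = 0.0565). With the replicate block Acadm passed (adjusted p = 0.0268), and it was lower by 0.39, 0.44 and 0.14 on the log2 scale within replicates 1, 2 and 3 (differences of -0.39, -0.44 and -0.14). It also passed without DMSO-3, at -0.42 (adjusted p = 0.0108).

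Of the enzymes that hydrate the double bond, the short-chain hydratase gene rose and the gene of the long-chain complex did not pass the test. Echs1 (ENSMUSG00000025465, chr7:140105710-140116476, minus strand), which encodes the short-chain enoyl-CoA hydratase, was at 36.7, 35.8 and 37.9 CPM with DMSO and 47.5, 48.1 and 46.0 CPM under CKBA. The lowest CKBA library was above the highest DMSO library, and each group was tight. Echs1 rose from 36.8 ± 1.09 to 47.2 ± 1.04 CPM (SD, n = 3 each), 1.28-fold, a log2 fold change of 0.36 ± 0.08 (adjusted p = 0.0187). The adjusted p was 0.0958, 0.106, 0.0844 and 0.093 without DMSO-1, DMSO-2, CKBA-1 and CKBA-2. The gene overlaps Paox on the opposite strand over 678 bases, and Paox had a mean of 290 counts of its own. As for Acadvl, reads of the overlap cannot be told apart.

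Hadha (ENSMUSG00000025745, chr5:30118304-30155162, minus strand), the alpha subunit of the trifunctional protein that carries out hydration and the second dehydrogenation of long chains, was at 143, 143 and 134 CPM with DMSO and 129.7, 122 and 133 CPM under CKBA. The groups lay apart by less than 1 CPM, and the log2 fold change of -0.13 ± 0.07 had a 95% interval of -0.29 to 0.04 (adjusted p = 0.273). The difference was -0.14, -0.23 and -0.01 on the log2 scale between the libraries of replicate 1, 2 and 3.

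Of the 2 auxiliary enzymes for unsaturated chains, one gene rose and the other fell. Decr1 (ENSMUSG00000028223, chr4:15917240-15945507, minus strand) encodes the 2,4-dienoyl-CoA reductase, which removes a double bond of polyunsaturated chains. It was at 15.8, 16.1 and 16.0 CPM with DMSO and 22.0, 20.8 and 20.2 CPM under CKBA, so all CKBA libraries were above all DMSO libraries. Decr1 rose from 16.0 ± 0.141 to 21 ± 0.9 CPM, 1.32-fold, a log2 fold change of 0.40 ± 0.10 (adjusted p = 0.0317). Without DMSO-1, DMSO-2, CKBA-1 and CKBA-2 the adjusted p was 0.121, 0.115, 0.122 and 0.107.

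Eci2 (ENSMUSG00000021417, chr13:34977748-35027096, minus strand) encodes an enoyl-CoA isomerase that shifts double bonds into the position the hydratase can use. It was at 56.5, 61.0 and 51.3 CPM with DMSO and 40.8, 41.2 and 44.2 CPM under CKBA, without overlap, and the replicate 3 libraries were the nearest to each other. Eci2 fell from 56.3 ± 4.89 to 42.1 ± 1.88 CPM, to 0.748-fold, a log2 fold change of -0.42 ± 0.09 (adjusted p = 0.0202). The adjusted p was 0.0904, 0.108, 0.0925 and 0.0946 without DMSO-1, DMSO-2, CKBA-1 and CKBA-2. The antisense gene Gm16984 overlaps it over 12705 bases, with a mean of 18.5 counts of its own, and the RefSeq start used for the promoter lies inside these annotated bounds. The paralog Eci3, named after its values were seen, had 0 counts in all 6 libraries, and the isomerase gene Eci1 stood at 19.3 ± 1.11 and 19.2 ± 0.712 CPM (adjusted p = 0.990).

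Etfa (ENSMUSG00000032314, chr9:55454508-55512243, minus strand), the alpha subunit of the electron transfer flavoprotein, was at 59.2, 55.4 and 57.4 CPM with DMSO and 74.4, 72.6 and 64.8 CPM under CKBA. Every CKBA library was above every DMSO library, and CKBA-3 was the lowest of its group. Etfa rose from 57.3 ± 1.92 to 70.6 ± 5.09 CPM, 1.23-fold, a log2 fold change of 0.30 ± 0.08 (adjusted p = 0.0443). The adjusted p was 0.123, 0.174, 0.161 and 0.158 without DMSO-1, DMSO-2, CKBA-1 and CKBA-2, and 0.0596 without DMSO-3.

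**Figure D2:**
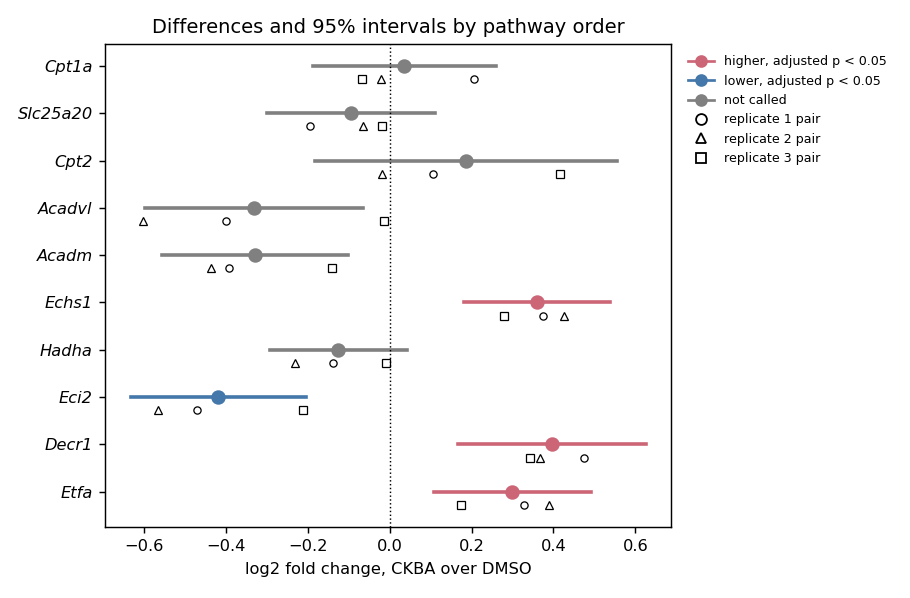
Log2 fold change of CKBA over DMSO (horizontal axis) for the 10 genes in pathway order, with large points for the fit, lines for its 95% interval and small open markers for the difference within each replicate number. Echs1, Decr1 and Etfa lie above zero and Eci2 below in all 3 replicate numbers, and the interval of Cpt1a runs from -0.19 to 0.26.

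Per transcript length, in the authors' FPKM over all 6 libraries, Etfa was the most abundant of the 10 at a mean of 34.8 FPKM and Decr1 the least at 4.75 FPKM. Between them came Cpt1a at 21.2, Acadvl at 19.3, Eci2 at 18.8, Hadha at 15.3, Acadm at 12.0, Cpt2 at 9.35, Echs1 at 7.95 and Slc25a20 at 6.64 FPKM. The ranges over libraries of neighbours in this order overlapped, except between Etfa and Cpt1a and between Slc25a20 and Decr1. Of all genes tested, 88.0% had a lower mean FPKM than Etfa and 42.1% a lower one than Decr1. The 2 groups ranked the genes alike but for Cpt1a, which came after Acadvl and Eci2 with DMSO (a mean of 21.01 against 21.6 and 21.55 FPKM) and before them under CKBA (21.3 against 17.1 and 16.0 FPKM).

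**Figure D3:**
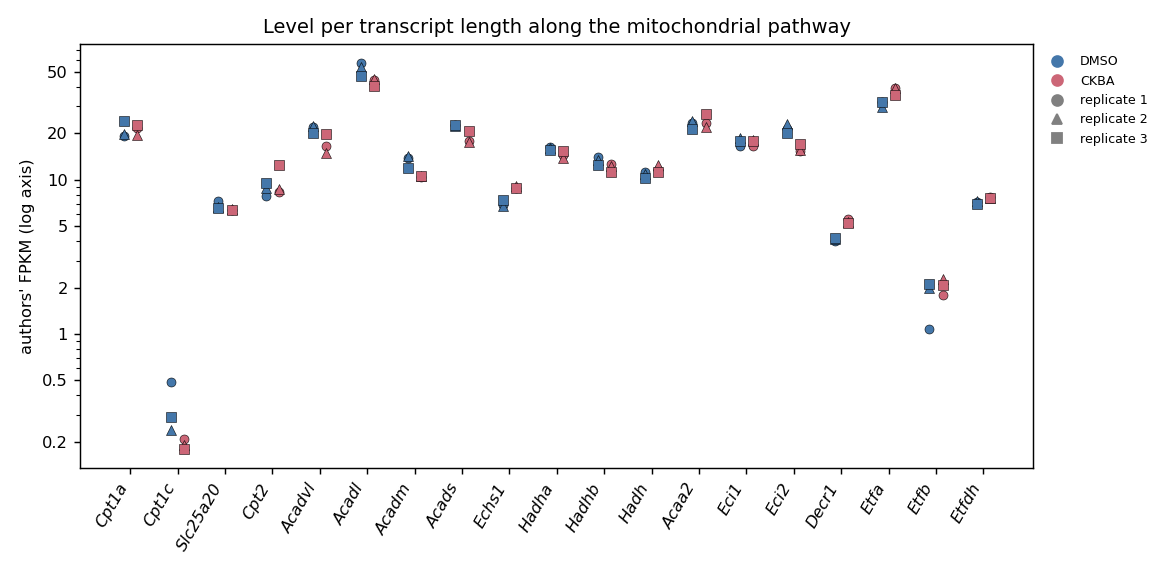
Level per transcript length (vertical axis, the authors' FPKM, log scale) of genes along the mitochondrial pathway in each library, DMSO in blue and CKBA in red, with the marker shape giving the replicate. Acadl and Etfa are the most abundant genes drawn, Cpt1c and Etfb the least.

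Among the further mitochondrial genes listed, 1 passed the test. Of 20 tested genes among 22 of a list named other mitochondrial beta-oxidation, 1 fell and 0 rose, with a median of 0.01 on the log2 scale. That list also held acyl-CoA thioesterase genes, which do not encode a step of the rounds described above. The gene that fell was Acot9, an acyl-CoA thioesterase, from 52.6 ± 3.59 to 38.5 ± 1.21 CPM (log2 fold change -0.45 ± 0.09, adjusted p = 0.0124). Its adjusted p was 0.0723, 0.0526, 0.0548 and 0.0715 without DMSO-1, DMSO-2, CKBA-1 and CKBA-2. The long-chain dehydrogenase gene Acadl stood at 52.8 FPKM with DMSO and 43.4 FPKM with CKBA (adjusted p = 0.104), and Hsd17b10, a mitochondrial hydroxyacyl-CoA dehydrogenase gene, had an adjusted p of 0.191. With the replicate block, Acadl was called as lower (adjusted p = 0.0183), as it was without DMSO-3 (0.0232).

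Named after their values were seen, the partner subunit gene Hadhb was at 87.9 ± 6.72 CPM with DMSO and 80.3 ± 6.62 CPM under CKBA (adjusted p = 0.375). The short-chain dehydrogenase gene Acads, at 51.2 ± 0.757 and 42.6 ± 3.26 CPM, had an adjusted p of 0.0693, and it was called with the block (0.0425) and without CKBA-3 (0.0145). Hadh, the short-chain hydroxyacyl-CoA dehydrogenase gene, and Acaa2, a thiolase gene, differed by 0.13 ± 0.09 and 0.08 ± 0.10 on the log2 scale (adjusted p = 0.352 and 0.653). Of 4 tested genes of electron transfer, 0 were called. The dehydrogenase gene Etfdh, which passes the electrons to ubiquinone, was at 53.7 ± 2.43 and 57.7 ± 1.52 CPM (adjusted p = 0.396), and Slc25a32, a mitochondrial carrier of flavin and folate, at 22.5 ± 1.65 and 24.8 ± 1.79 CPM (adjusted p = 0.397).

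Of 7 tested carnitine handling genes outside the shuttle, from a list of 9, 2 fell and 0 rose, with a median of -0.32. Crat, the carnitine acetyltransferase, fell from 17.2 ± 0.336 to 11.6 ± 0.883 CPM (log2 fold change -0.56 ± 0.12, adjusted p = 0.0159), and Crot, the peroxisomal carnitine octanoyltransferase, from 46.8 ± 1.22 to 37.5 ± 3.02 CPM (-0.32 ± 0.09, adjusted p = 0.0439). Crat was at 17.4, 17.3 and 16.8 CPM with DMSO and 10.8, 12.6 and 11.5 CPM under CKBA, with no overlap. Its call was lost without DMSO-1 (adjusted p = 0.0767), DMSO-2 (0.0789) or CKBA-1 (0.0758), and that of Crot without these or CKBA-2 (0.167, 0.158, 0.171 and 0.173). Crot was also not called with no filter on low counts (0.0788) or by limma on log2 FPKM with a pseudocount of 0.1 or 1 (0.0579 and 0.0589). Slc22a5, the importer of carnitine into the cell, named after its values were seen, was at 26.6, 27.2 and 36.5 CPM with DMSO and 38.5, 46.7 and 40.6 CPM under CKBA (adjusted p = 0.0564, and 0.023 with the replicate block), and without DMSO-3 its adjusted p was 0.00769.

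Of 14 tested uptake and activation genes among 19, 2 rose and 0 fell, with a median of 0.15. Acsl6, a long-chain acyl-CoA synthetase, rose from 2.85 ± 0.807 to 8.44 ± 1.04 CPM, 2.95-fold, with a log2 fold change of 1.56 ± 0.24 (adjusted p = 0.00621). Fabp5, a fatty acid binding protein, rose from 96.7 ± 5.01 to 146 ± 21.3 CPM (0.60 ± 0.11, adjusted p = 0.0124). Acsl6 kept its call without any 1 of the 6 libraries, and Fabp5 lost it without DMSO-1, DMSO-2, CKBA-1 or CKBA-2 (adjusted p of 0.057, 0.0571, 0.0558 and 0.0591).

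Of 18 tested peroxisomal genes among 21, 1 fell and 0 rose, with a median of -0.14. Acox3, a peroxisomal acyl-CoA oxidase, was at 75.1, 73.5 and 68.8 CPM with DMSO and 48.5, 47.8 and 53.6 CPM under CKBA, a fall of 0.54 ± 0.08 on the log2 scale (log2 fold change -0.54, adjusted p = 0.00589) that was called without any 1 of the 6 libraries. The abundant peroxisomal genes Slc25a17, a cofactor carrier, and Scp2, a thiolase and lipid transfer gene, had adjusted p of 0.575 and 0.563. Of 18 tested regulators among 23, 1 rose and 1 fell, with a median of -0.04. Lpin1, a phosphatidate phosphatase that also acts as a coactivator, fell from 46.8 ± 0.901 to 29.3 ± 3.43 CPM (-0.67 ± 0.10, adjusted p = 0.00565), a call held without any 1 library. Rxra, the nuclear receptor partner of PPARs, rose from 21.7 ± 2.80 to 29.1 ± 1.89 CPM (0.42 ± 0.12, adjusted p = 0.0465), and its adjusted p was 0.173, 0.176, 0.121, 0.113 and 0.0602 without DMSO-1, DMSO-2, CKBA-1, CKBA-2 and CKBA-3. Rxra was also not called with library totals without TMM (0.0699) or by limma on log2 FPKM with a pseudocount of 0.1 or 1 (0.088 and 0.0888). Acaca encodes acetyl-CoA carboxylase 1, a maker but not the only one of the CPT1 inhibitor malonyl-CoA. Acaca was at 139, 134.6 and 139 CPM with DMSO and 148, 142 and 133 CPM under CKBA (adjusted p = 0.763).

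**Figure D4:**
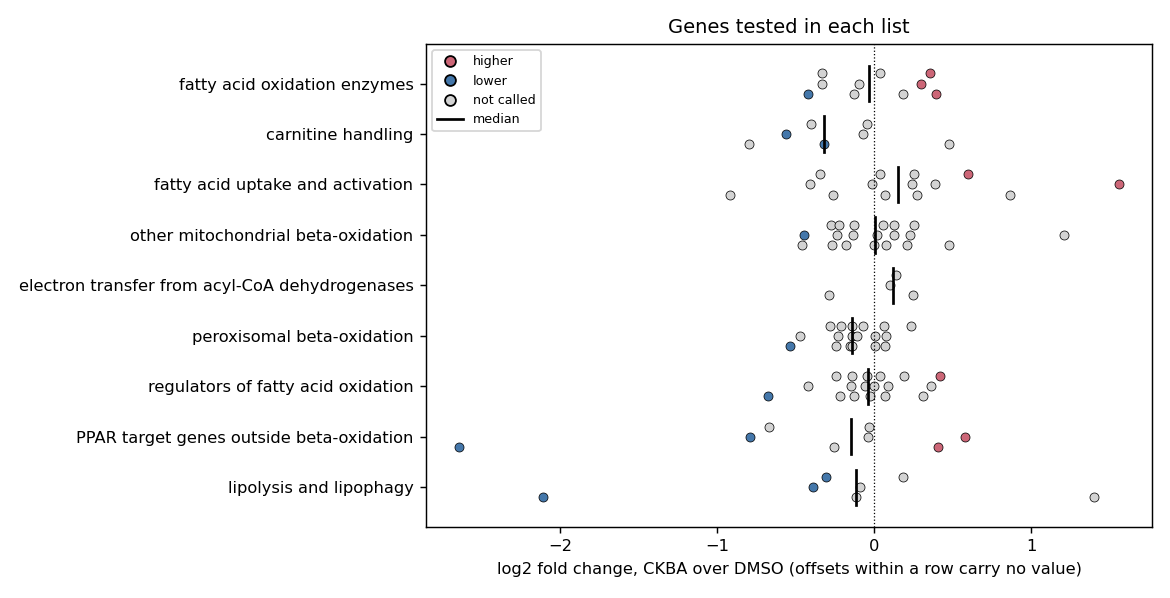
Log2 fold change of CKBA over DMSO (horizontal axis) of each tested gene, 1 point per gene, in the 10 fatty acid oxidation genes and 8 further lists, with red for higher, blue for lower, grey for not called and a black line for each median. The 4 called fatty acid oxidation genes lie within -0.42 to 0.40, while Dgat1 at -2.11 and Mgll at -2.64 lie far to the left.

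Dgat1 and Plin2, genes of triglyceride storage, fell by more than Eci2 did. Of 7 tested genes among 9 of a list named lipolysis and lipophagy, 3 fell and 0 rose, with a median of -0.11. That list also held the storage genes Dgat1 and Dgat2 and the droplet coat gene Plin3. Of the 3 genes that fell, only Lipa encodes a lipase. The lipase genes Lipe, which rose, and Mgll, which fell, were listed with the PPAR targets. Dgat1, which makes triglyceride from diacylglycerol, was at 109, 107.6 and 63.9 CPM with DMSO and 21.3, 21.4 and 22.1 CPM under CKBA. The CKBA libraries were almost level, and DMSO-3 lay between them and the other DMSO libraries. The log2 fold change of -2.11 ± 0.20 (adjusted p = 0.00086) was called without any 1 library and also with replicates 1 and 2 summed (adjusted p = 0.0445). Lipa, the lysosomal acid lipase, and Plin3, a lipid droplet coat gene, fell by 0.39 and 0.30 on the log2 scale (adjusted p = 0.0286 and 0.0429). The adjusted p rose to as much as 0.136 for Lipa (without DMSO-2) and 0.173 for Plin3 (without CKBA-2), and among these fits Lipa was called only without DMSO-3 or CKBA-3 and Plin3 only without CKBA-3. With all 6 libraries, Plin3 was not called by DESeq2 (adjusted p = 0.0541), with library totals without TMM (0.0516) or with no filter on low counts (0.104).

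Of 8 tested PPAR target genes among 18, 2 rose and 2 fell, with a median of -0.15. Plin2, another droplet coat gene, fell from 35.7 ± 4.11 to 20.6 ± 2.52 CPM (-0.79 ± 0.13, adjusted p = 0.0074), with the call held without any 1 library. Mgll, monoacylglycerol lipase, named after its values were seen, was at 41.9, 39.3 and 12.9 CPM with DMSO and 7.51, 6.14 and 1.6 CPM under CKBA, lower by 2.48, 2.68 and 3.01 on the log2 scale within replicates 1, 2 and 3 (fitted log2 fold change -2.64 ± 0.59, adjusted p = 0.0208, and 2.1e-05 with the replicate block). It was not called without DMSO-1 (0.0925), DMSO-2 (0.0907), CKBA-1 (0.0799), CKBA-2 (0.100) or CKBA-3 (0.0723), nor with no filter on low counts (0.172). Klf10, a transcription factor gene also known as a TGF-β early response gene, and Lipe, hormone-sensitive lipase, rose by 0.58 ± 0.10 and 0.41 ± 0.09 on the log2 scale (adjusted p = 0.00834 and 0.0178). Klf10 was not called without DMSO-1 (0.0513) or DMSO-2 (0.0522), nor Lipe without these, CKBA-1 or CKBA-2 (0.0922, 0.0972, 0.0503 and 0.0798). Over the 96 tested genes of the 8 further lists, 5 rose and 10 fell, 15.6% against 17.1% of all genes. With the replicate block 30 of the 96 were called, in a fit that called 28.2% of all genes. Of the 15 genes called in the main fit, 1 was called with replicates 1 and 2 summed, Dgat1.

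**Figure D5:**
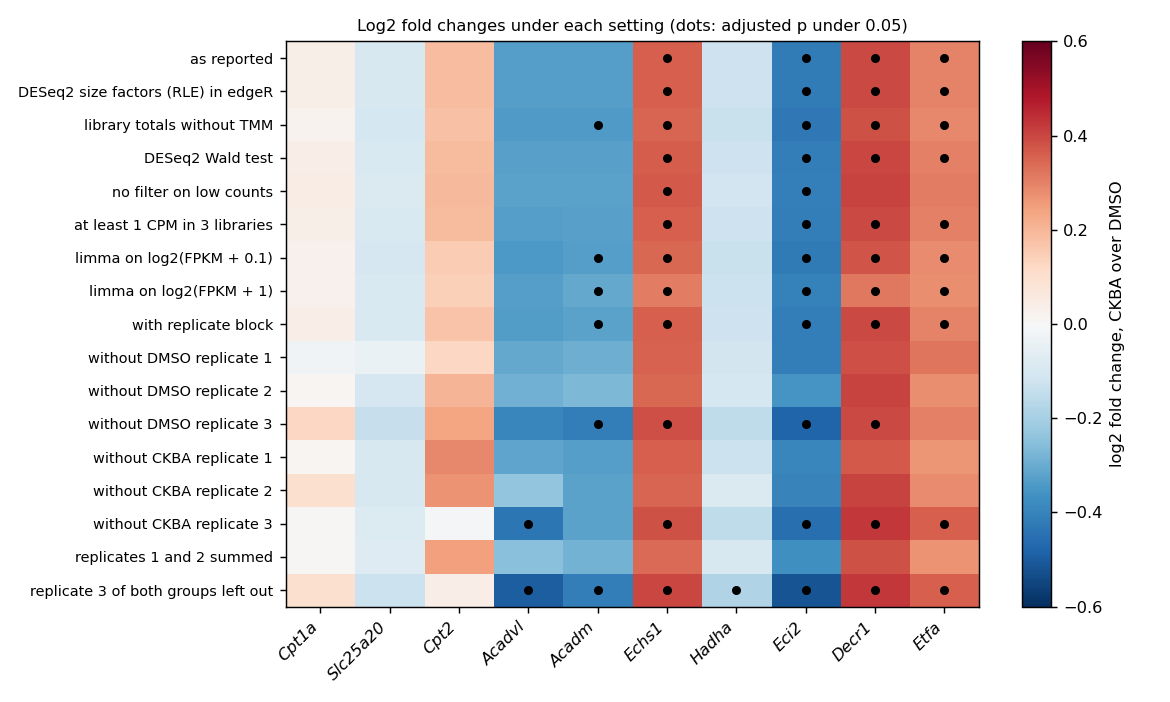
Log2 fold change of CKBA over DMSO (colour, scale at the right) of the 10 genes (columns) as reported and under 16 other settings (rows), with a dot where the adjusted p was under 0.05. The 4 called genes keep their colour in every row and lose their dots without DMSO-1, DMSO-2, CKBA-1 or CKBA-2 and with replicates 1 and 2 summed. Decr1 and Etfa also lose them with no filter on low counts, and Etfa without DMSO-3.

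The labels give the tissue as epidermis and the cells as CD4+ T cells, and T cell markers were present. Total counts were 19838347 to 25331863 per library, which put 311 to 518 counts on Decr1, the scarcest of the 10 genes, and 2497 to 3402 on Hadha. All 10 T cell markers were tested, while the keratinocyte genes Krt14, Krt1 and Krt15 had 0 counts throughout and 6 of 15 keratinocyte markers were tested. Of those 6, Sfn had means of 32.2 and 22.0 CPM with DMSO and CKBA, Perp 12.5 and 16.0 CPM and Dsp 4.29 and 5.34 CPM, and the rest were lower. Some marker sums moved with the groups. The summed T cell markers were at 3691 to 3903 CPM with DMSO and 3114 to 3319 CPM under CKBA (3 of 10 fell, 0 rose). Cd28 differed most, with means of 458 and 197 CPM, while Thy1 alone was higher under CKBA (671 and 754 CPM, not called). The CD8 and NK cell markers were at 151 to 164 and 104 to 109 CPM (6 of 8 tested, 2 fell, 1 rose). Klrd1, at means of 86.3 and 36.5 CPM, made up most of that difference, and Cd8a fell too. Eomes rose (1.28 and 6.05 CPM), and Nkg7 was higher but not called (14.9 and 21.3 CPM). The 8 B cell markers (1 rose) summed to 117, 122 and 186 CPM in DMSO-1, DMSO-2 and DMSO-3 and to 267, 254 and 112 CPM in CKBA-1, CKBA-2 and CKBA-3, higher under CKBA in replicates 1 and 2 and lower in replicate 3. The 10 myeloid markers summed to 9.65 to 11.3 and 10.1 to 11.2 CPM, the keratinocyte ones to 44.2 to 56.3 and 41.6 to 50.5 CPM, and the fibroblast ones without Thy1, a gene T cells share, to 1.32 to 3.39 and 0.494 to 1.36 CPM. Their part in the differences of the oxidation genes was not tested, and in such bulk samples fewer cells of a type cannot be told apart from less RNA per cell. With DMSO and with CKBA, Cd4 stood at 474 ± 23.2 and 363 ± 87.6 CPM, with overlapping groups (adjusted p = 0.125, not called). Il17a, the TH17 cytokine gene, stood at 139.8 ± 40.2 and 12.1 ± 0.826 CPM and was called as lower under CKBA (adjusted p = 0.000324).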

How the data were processed

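RNA-seq of 6 libraries was deposited as 1 table. The submitters' processing notes name CASAVA 1.8, RSEM, edgeR and the build GRCm38. The deposited counts were therefore treated as RSEM expected counts, and the FPKM per library are the authors' own. The aligner and annotation release are not given in the sources used here. RSEM divides reads among similar genes, so values of close paralogs are uncertain. The deposited estimated counts held 0 values that were not whole. FPKM served for levels between genes and in an alternative test.

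Genes were tested with edgeR 4.0.16 (R 4.3.3; quasi-likelihood F test, robust, TMM, filterByExpr, Benjamini-Hochberg adjustment over all 13928 genes tested). CPM are scaled by TMM, and the SE is the absolute log2 fold change divided by the root of F. Intervals are 95% intervals of that fit. DESeq2 1.42.0 and limma 3.58.1 were alternatives.

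The members and gene lists were chosen with earlier results of these data known. The text describes all 10 genes, and of each further list up to 3 called genes with the smallest adjusted p, and, where fewer than 2 were called, also up to 2 of the most abundant by FPKM, besides the CPT1 forms Cpt1b and Cpt1c, Cd4 and Il17a, and the 3 genes nearest to Cpt1a; other genes are marked as named after their values were seen or are Acaca, Eci1 and Etfb, likewise named later. Of 127 listed symbols, 2 were not matched. Same-numbered DMSO and CKBA libraries deviated from their group means together (correlation over genes 0.297, 0.274 and 0.457 for replicates 1, 2 and 3). The main fit did not use the numbers, and a fit with the replicate number as a block is given beside it. Replicates 1 and 2 correlated as much across numbers (0.284 and 0.278), so which of these libraries pair cannot be told. The chi-square per gene was 2.76 and 3.19 between replicates 1 and 2 of a group and 31.8 to 34.6 against replicate 3, where sampling alone gives about 1. Replicates 1 and 2 were counted as labelled, as separate libraries; this does not show that they came from separate cultures, and a fit with them summed is given beside the results. Gene positions are from GENCODE M21 (GRCm38).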

Additional observations from a re-analysis of the deposited data

How the results depend on the processing

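Of 160 values of the 10 genes over 16 alternatives, 126 kept direction and call, 23 lost the call, 9 gained it and 2 changed sign: over fits without 1 library, the log2 fold change of Cpt1a ran from -0.019 (without DMSO-1) to 0.12 and that of Cpt2 from -0.0053 (without CKBA-3) to 0.29. Elsewhere Acaa2 was at -0.056 without replicate 3 of both groups, and Eci1 was at 0.00043 with DESeq2, 0.0069 with no filter, 0.0055 with replicates 1 and 2 summed and -0.038 to 0.047 without 1 library. Leaving out 1 library in turn gave 251 to 1961 genes higher and 390 to 2014 lower, 0 to 3 of the 10 genes higher and 0 to 2 lower, and 1 to 9 pathway genes higher and 4 to 14 lower. The replicate block gave 1922 and 2009 genes, 3 and 2 of the 10, and 10 and 20 pathway genes; beside the calls named in the report it took no call from the 10 genes. Summing replicates 1 and 2 gave 56 and 54 genes, 0 and 0 of the 10, and 0 and 1 pathway genes. Without replicate 3 of both groups there were 3660 and 3728 genes, 3 and 4 of the 10, and 19 and 32 pathway genes. With no filter 1 of the 10 rose, as Decr1 (adjusted p = 0.0656) and Etfa (0.053) missed the threshold, DESeq2 called 8 pathway genes as higher, and library totals without TMM and limma on log2(FPKM + 0.1) or log2(FPKM + 1) called 2 of the 10 as lower, the second being Acadm. The cause was not tested. Of the 10 genes Decr1 had the fewest counts.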

Other observations

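Etfb encodes the beta subunit that pairs with the product of Etfa. It was listed at 1.08 to 2.29 FPKM in the 6 libraries, against 29.9 to 39.7 FPKM for Etfa, and did not pass the test (log2 fold change 0.25 ± 0.31, adjusted p = 0.614). Acadl, at 40.8 to 57.0 FPKM, was more abundant in every library than Acadm and Acadvl.

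The genes whose profile over the 6 libraries lay nearest to that of Cpt1a were Ifnar2, an interferon receptor subunit gene, Rps6kc1 and Znrd1. Their root mean square distances in centred log2 CPM were 0.0303, 0.0328 and 0.0341, among 11908 genes, and the libraries share depth and replicate structure.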
